A study of Mus musculus with 47 samples.

Results

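Noradrenaline, dopamine and acetylcholine neurons were followed through 9 genes that make, reload or mark them, chosen by gene symbol from the 55416 genes of the male and female brain count tables. The noradrenaline and dopamine genes were Th, Dbh, Slc6a2, Slc6a3 and Phox2a, and the acetylcholine and motor neuron genes were Chat, Slc5a7, Prph and Isl1. All 9 were found in both tables. Every mouse was a homozygous 3xTg-AD mouse, a model that carries human APP with the Swedish mutation, a mutant human tau and a mutant Presenilin 1, with the APP and tau transgenes driven in neurons by the Thy1 promoter. From 6 months of age the mice ate an amino acid-defined Control diet or the same kind of diet restricted in isoleucine (IleR), leucine (LeuR) or valine (ValR) for 9 months, so that they were about 15 months old when the brain was taken. Since no library of a mouse without the transgenes was in the series, every difference described here is between diets within this model.

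RNA-seq counts were analysed for 37 libraries. Of the 14 from males, 4 were from Control-fed mice, 3 each from IleR-fed and LeuR-fed mice and 4 from ValR-fed mice, and of the 23 from females, 5 were from IleR-fed mice and 6 from each of the other diets. Total counts ran from 12682687 to 25722333 in males and from 10672599 to 21370973 in females. A further 10 male libraries named in the labels were not analysed here. The tissue label says brain and 1 extraction label names liver. The study's methods name the left hemisphere for RNA extraction and its results the whole brain, and the labels give both polyA-enriched mRNA libraries and total RNA. Whether the same part of the brain was taken from every mouse is not stated in the sources used here, and the genes followed here are bound to brain regions. The summed level of 6 pan-neuronal markers was 3263 to 5786 CPM (counts scaled to a common library size) in every library, against 0.337 to 11.0 CPM for 6 liver markers, so the libraries held the markers of brain.

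Several libraries stood apart before any diet was considered. Control male 4 held high Th and Slc6a3. LeuR male 21 held 1 count of Dbh and 0 of Slc6a2, both of which the other LeuR males had, and its hindbrain marker score, defined further on, was near that of the Control males. Among females, Control 27 and ValR 36 held more Dbh and Slc6a2 than the rest. In whole tissue, fewer cells of a type and less RNA per cell cannot be told apart.

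Noradrenaline and dopamine share the first enzymes of their synthesis. Tyrosine hydroxylase (Th) makes L-DOPA in both kinds of neuron, dopamine beta-hydroxylase (Dbh) turns dopamine into noradrenaline, and the transporters Slc6a2 and Slc6a3 take noradrenaline and dopamine back up. Phox2a is a transcription factor of noradrenaline neurons. The locus coeruleus of the pons is the main noradrenaline nucleus of the brain, while most dopamine neurons lie in the midbrain, with others in the hypothalamus and the olfactory bulb. Acetylcholine is made by choline acetyltransferase (Chat) from choline that Slc5a7 carries into the terminal, in the basal forebrain, in striatal interneurons, and in brainstem and spinal motor neurons. Peripherin (Prph) is an intermediate filament of neurons that send axons into the periphery, and Isl1 is a transcription factor of motor neurons and of striatal neurons.

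The genes lie on 7 chromosomes of GRCm38. Th is on chromosome 7 at 142892752 to 142931128, Phox2a on chromosome 7 at 101818313 to 101822726, Dbh on chromosome 2 at 27165233 to 27183200, Slc6a2 on chromosome 8 at 92960079 to 93001667, and Slc6a3 on chromosome 13 at 73536747 to 73578672. Chat is on chromosome 14 at 32408203 to 32465989, Slc5a7 on chromosome 17 at 54273590 to 54299034, Prph on chromosome 15 at 99055174 to 99058978, and Isl1 on chromosome 13 at 116298281 to 116309689. Slc18a3, the vesicular acetylcholine transporter, lies inside the Chat gene on the same strand, with 0 exon bases in common. Phox2a shares 257 exon bases with Inppl1 on the opposite strand, and since the strand setting of the counting is not stated, reads of the pair could be exchanged.

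Promoter sequence was taken from the RefSeq-based table on GRCm38.p6, which held 8 of the 9 genes and not Slc6a2. The 250 bases before the start site of Th and of 3 of the genes that were upregulated on each diet in males (Phox2a, Slc5a7 and Prph) are shown so that their sequences can be set beside their counts. The 4 short motifs searched, on both strands, were TATAAA, the TATA box, TGACGTCA, the cAMP response element, AAAGGTCA, the Nurr1 site, and TAATTA, the core read by many homeodomain proteins. Capitals mark a match.
Th, chr7:142899996-142900245, minus strand: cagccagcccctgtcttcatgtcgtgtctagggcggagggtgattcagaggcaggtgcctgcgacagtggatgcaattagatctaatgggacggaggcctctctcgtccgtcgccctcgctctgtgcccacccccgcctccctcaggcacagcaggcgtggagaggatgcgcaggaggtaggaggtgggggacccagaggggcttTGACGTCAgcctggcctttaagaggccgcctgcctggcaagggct
Phox2a, chr7:101818063-101818312, plus strand: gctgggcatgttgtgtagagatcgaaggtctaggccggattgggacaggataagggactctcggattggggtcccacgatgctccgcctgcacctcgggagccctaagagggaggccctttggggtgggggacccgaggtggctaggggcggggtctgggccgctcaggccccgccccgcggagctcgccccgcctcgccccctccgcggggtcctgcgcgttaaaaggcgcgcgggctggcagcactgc
Slc5a7, chr17:54299035-54299284, minus strand: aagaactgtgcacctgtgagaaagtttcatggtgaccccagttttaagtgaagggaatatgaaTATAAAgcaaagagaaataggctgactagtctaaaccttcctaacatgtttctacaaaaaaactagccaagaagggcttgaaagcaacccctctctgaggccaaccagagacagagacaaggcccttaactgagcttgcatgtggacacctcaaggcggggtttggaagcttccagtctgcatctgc
Prph, chr15:99054924-99055173, plus strand: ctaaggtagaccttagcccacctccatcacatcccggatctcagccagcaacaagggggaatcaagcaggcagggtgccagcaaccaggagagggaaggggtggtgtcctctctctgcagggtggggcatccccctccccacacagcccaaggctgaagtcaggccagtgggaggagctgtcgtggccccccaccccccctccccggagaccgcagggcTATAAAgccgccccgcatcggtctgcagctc
The cAMP response element letters were found in Th and in 1.55% of all 32851 promoters of the same length. TATAAA was found in Slc5a7 and Prph and in 12.4% of all promoters. The Nurr1 letters and TAATTA were in none of the 8 genes' windows and in 1.34% and 4.84% of all promoters. None of the 4 motifs was found in all of Phox2a, Slc5a7 and Prph, and none was found in Dbh, which rose on the same diets and whose sequence is not shown.

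In males, the noradrenaline genes Dbh, Slc6a2 and Phox2a, the choline transporter Slc5a7 and peripherin rose on each of the 3 restricted diets against Control. The count was 5 of 9 genes up and 0 of 9 down on every diet (edgeR quasi-likelihood test, Benjamini-Hochberg adjusted over all 22197 genes tested). Across all genes tested, 6.63% were called up with IleR, 3.81% with LeuR and 11.1% with ValR, and 8.68%, 6.33% and 12.4% were called down. At an unadjusted p under 0.05, 0 of the 9 were lower with IleR or LeuR, and 1 was lower with ValR, Slc6a3. DESeq2 and limma voom also called 0 of the 9 lower. DESeq2 called 5, 6 and 5 up, and limma voom 1, 3 and 1 (7.38%, 3.91% and 11% of all genes). With only LeuR and Control males fitted, edgeR called 0 members and 0 of all 21015 genes. With the hindbrain marker score as a covariate it called 0 members on each diet, and 3, 10 and 0 of all genes. All 9 passed the low-count filter in males, but Slc6a2, Slc6a3, Phox2a and Isl1 passed it only through restricted groups, so for them the filter favoured genes that were higher there. With no filter the counts were 5, 6 and 5, where the sixth was Chat with LeuR. Nothing in the labels or methods says how the library numbers relate to cages or days, and the p-values measure the spread between these libraries.

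**Figure D1:**
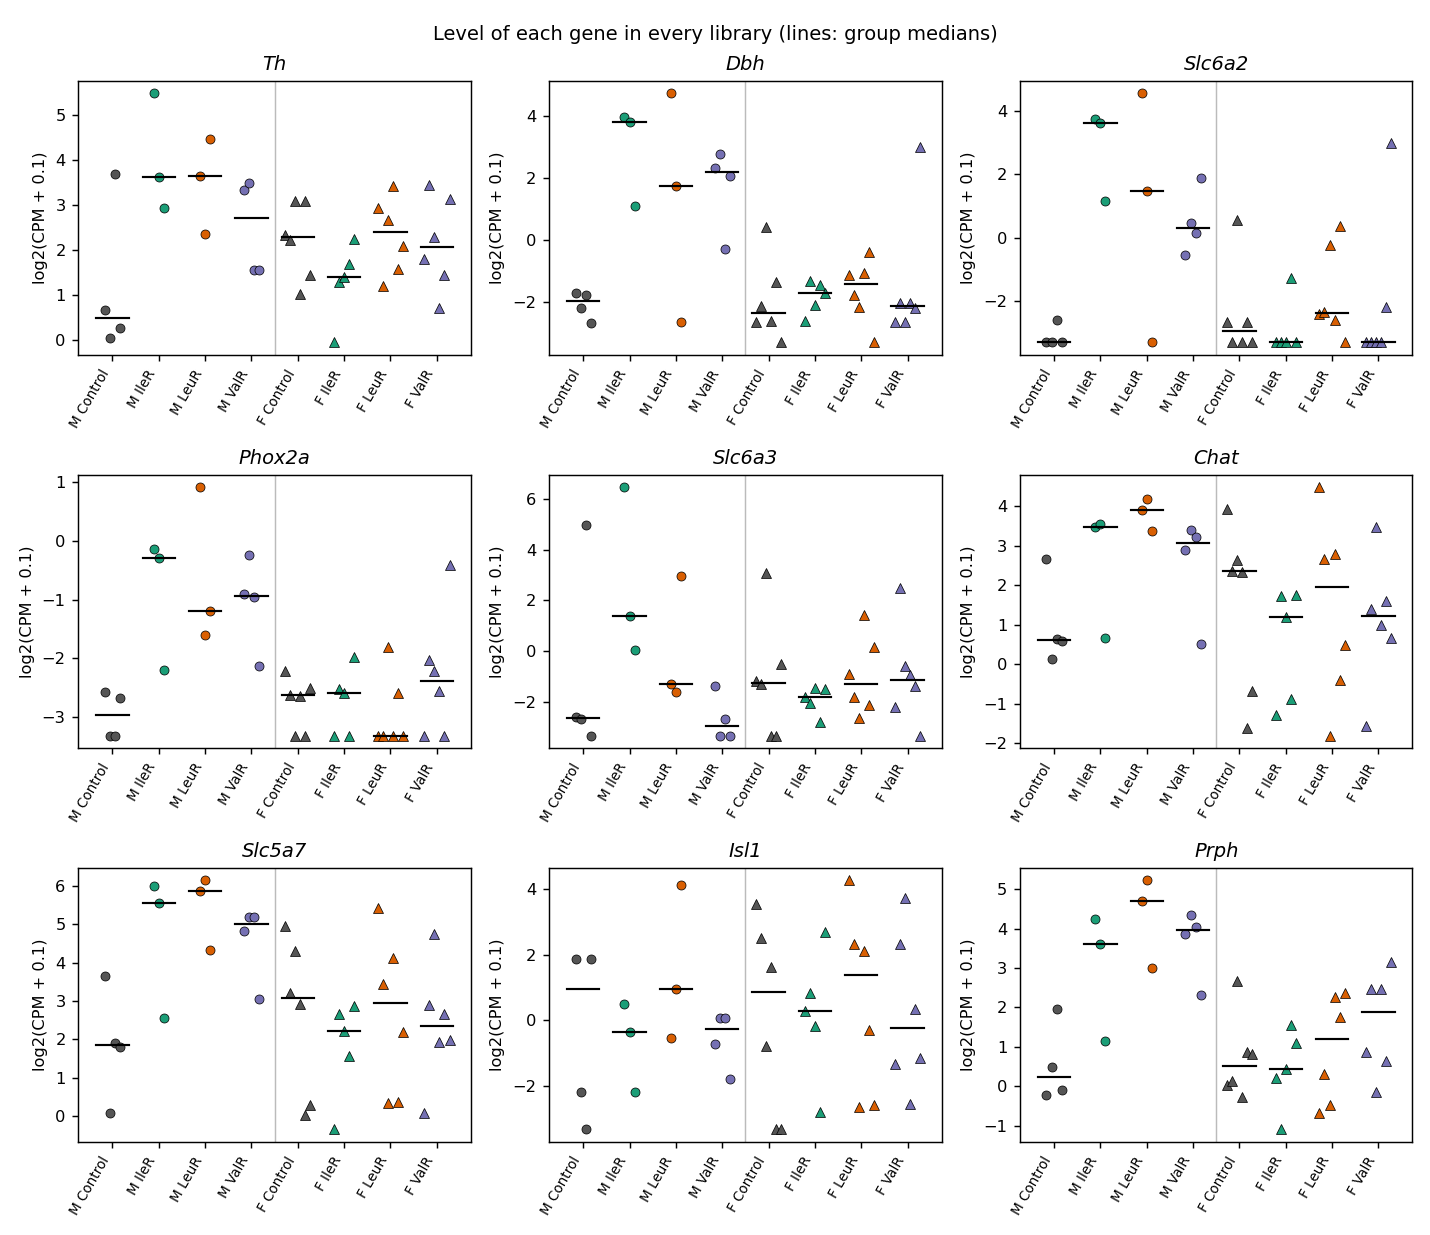
Level of each of the 9 genes in each library, as log2(CPM + 0.1) on the vertical axis, by diet and sex on the horizontal axis (M, male, circles; F, female, triangles; horizontal lines, group medians). Dbh was at 0.0559 to 0.204 CPM in the 4 Control males and at 0.708 to 26.6 CPM in 9 of the 10 restricted males, while most female libraries lay with the Control males.

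Dbh was the clearest change among the enzymes. Control males held 0.204, 0.118, 0.191 and 0.0559 CPM, from 1 to 3 counts each. IleR-fed males held 15.8, 13.9 and 2.01 CPM. LeuR-fed males held 26.6, 3.23 and 0.0564 CPM, so that LeuR 21, with 1 count, lay inside the Control range while the other two lay above it. ValR-fed males held 4.89, 6.81, 0.708 and 4.08 CPM, all above the highest Control library. Because the Control libraries held at most 3 counts, the size of the change was taken as a ratio of pooled rates with an exact 95% counting interval, which covers counting error only. It was 80.1 (41.9 to 176) with IleR, 87.1 (45.6 to 191) with LeuR and 28.9 (15.0 to 64.0) with ValR. The edgeR adjusted p was 0.0114, 0.0198 and 0.0254. In the LeuR group 595 of the 638 counts came from LeuR 19, and without it the edgeR log2 fold change went from 6.11 to 3.44 (adjusted p of 0.168). The LeuR call was also lost without Control 1, 3 or 5 and the ValR call without Control 1, 3 or 5 or ValR 9, while the IleR call was kept in each of these fits.

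Slc6a2, the noradrenaline transporter, followed Dbh. A total of 1 count was found in the 4 Control males, against 574 in the 3 IleR-fed, 561 in the 3 LeuR-fed and 101 in the 4 ValR-fed males. IleR-fed males held 13.3, 12.2 and 2.13 CPM, and LeuR-fed males held 23.5, 2.69 and 0 CPM. ValR-fed males held 0.576, 1.28, 1.00 and 3.63 CPM. As with Dbh, LeuR 21 overlapped the Control males and no IleR or ValR library did. With 1 count in Control, the pooled ratio was loosely bounded, at 629 (112 to 24869) with IleR, 689 (123 to 27265) with LeuR and 107 (18.8 to 4278) with ValR, and the edgeR adjusted p was 0.00714, 0.0140 and 0.0381. Without LeuR 19, the library at 23.5 CPM, the log2 fold change with LeuR went from 8.61 to 5.83 (edgeR adjusted p of 0.0894). The LeuR call was lost without LeuR 19 or Control 3, and the ValR call without any single Control male or without ValR 9, 10 or 12.

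Within single libraries the transporter and the enzyme kept a similar proportion on 2 of the diets. The count of Slc6a2 per count of Dbh was 0.843 to 1.06 in IleR-fed males and 0.833 to 0.884 in the 2 LeuR-fed males with enough Dbh counts. In ValR-fed males it ran from 0.118 to 1.42. ValR 7 and ValR 9 held 68 and 101 counts of Dbh with 8 and 19 counts of Slc6a2, whereas ValR 10 and ValR 12 held 12 and 64 with 17 and 57.

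Phox2a was low everywhere and rose from almost nothing. Control males held 1, 0, 0 and 1 counts. IleR-fed males held 13, 19 and 2 counts, LeuR-fed males 40, 3 and 6, and ValR-fed males 6, 11, 7 and 2. Every restricted library lay above every Control library in CPM, including LeuR 21 at 0.339 CPM, although IleR 17, LeuR 20 and ValR 12 each rested on 2 or 3 counts. The pooled ratio was 18.6 (4.77 to 160) with IleR, 30.1 (7.90 to 255) with LeuR and 13.8 (3.46 to 120) with ValR, with edgeR adjusted p of 0.0277, 0.0201 and 0.0310. The call was lost in 5 of the 14 fits without 1 male for IleR, in 2 for LeuR (without Control 3 or LeuR 19) and in 7 for ValR. The stricter filter, at least 10 counts in every library of a group, removed Phox2a from the test.

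Th did not pass the test on any diet. Control males held 1.498, 0.947, 12.8 and 1.12 CPM, where 12.8 was Control 4. IleR-fed males held 44.3, 12.2 and 7.58 CPM, LeuR-fed males 12.4, 4.99 and 21.8 CPM, and ValR-fed males 10.0, 11.2, 2.83 and 2.87 CPM. Each restricted library thus lay above 3 of the 4 Control males, and Control 4 overlapped all 3 diets. The log2 fold change was 2.39 ± 0.92 (SE) with IleR, 1.69 ± 0.91 with LeuR and 0.72 ± 0.87 with ValR, and the edgeR adjusted p was 0.0977, 0.257 and 0.613. Leaving out Control 4 brought Th past the threshold on all 3 diets, with log2 fold changes of 4.17, 3.47 and 2.50 and edgeR adjusted p of 0.00395, 0.0123 and 0.0352.

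Slc6a3, the dopamine transporter, did not follow the noradrenaline genes. Control males held 0.0681, 0.0592, 31.0 and 0 CPM, so that 487 of the group's 489 counts came from Control 4. IleR-fed males held 88.1, 2.49 and 0.948 CPM, LeuR-fed males 0.313, 0.230 and 7.73 CPM, and ValR-fed males 0.288, 0, 0.0590 and 0 CPM. No group was separated from Control. The edgeR log2 fold change was 1.97 ± 1.73 with IleR, -1.48 ± 1.87 with LeuR and -6.44 ± 2.66 with ValR, with adjusted p of 0.497, 0.655 and 0.0981. Single libraries set these signs: without Control 4 the values became 9.31, 5.87 and 0.90, and without IleR 13 the IleR value became -2.17.

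Libraries with much Th differed in which transporter or enzyme they also held. IleR 13 and Control 4 had both high Slc6a3 and high Th, and IleR 13 also held 15.8 CPM of Dbh. LeuR 21 held 21.8 CPM of Th with 7.73 CPM of Slc6a3 and 1 count of Dbh. LeuR 19, in contrast, held 12.4 CPM of Th with 26.6 CPM of Dbh and 0.313 CPM of Slc6a3. The Th count per Dbh count was 0.878 to 3.76 in IleR-fed males and 0.703 to 4.00 in ValR-fed males. It was not computed in Control males, whose Dbh counts were at most 3.

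Slc5a7, the high-affinity choline transporter, rose on all 3 diets. Control males held 12.4, 0.947, 3.63 and 3.35 CPM. IleR-fed males held 64.2, 47.0 and 5.81 CPM, LeuR-fed males 58.3, 70.6 and 19.9 CPM, and ValR-fed males 28.3, 36.2, 36.7 and 8.15 CPM. The LeuR libraries did not overlap Control, while IleR 17 and ValR 12 lay below the highest Control library. The log2 fold change was 2.96 ± 0.83 with IleR, 3.30 ± 0.83 with LeuR and 2.44 ± 0.79 with ValR, and the edgeR adjusted p was 0.0281, 0.0260 and 0.0388. Among the 14 fits that left out 1 male, the call was lost in 5 with IleR (without Control 3, 4 or 5, IleR 13 or IleR 14), in 4 with LeuR (without Control 3 or 5, LeuR 19 or LeuR 20) and in 7 with ValR (without Control 3, 4 or 5, ValR 7, 9 or 10, or IleR 14).

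Chat, the enzyme that makes acetylcholine, did not pass the test on any diet. Control males held 6.20, 1.01, 1.46 and 1.40 CPM. IleR-fed males held 10.9, 11.6 and 1.48 CPM, LeuR-fed males 14.7, 18.1 and 10.2 CPM, and ValR-fed males 7.27, 10.4, 9.26 and 1.34 CPM. The LeuR libraries lay above all Control libraries, and IleR 17 and ValR 12 overlapped them. The log2 fold change was 1.68 ± 0.75, 2.52 ± 0.76 and 1.505 ± 0.719, with edgeR adjusted p of 0.153, 0.0514 and 0.153. Without Control 1, the library with the most Chat in its group, all 3 values passed (adjusted p of 0.0449, 0.0312 and 0.0355).

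The proportion of transporter to enzyme was also taken within each library, as a description. The count of Slc5a7 per count of Chat was 0.941 to 2.48 in Control males, 3.92 to 5.88 in IleR-fed males, 1.96 to 3.96 in LeuR-fed males and 3.46 to 6.10 in ValR-fed males. LeuR 21 was the restricted library at 1.96, and the other 9 restricted libraries lay above every Control library. In females the medians were 2.11 with Control, 2.19 with IleR, 1.91 with LeuR and 2.50 with ValR.

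Peripherin also rose on all 3 diets. Control males held 0.749, 1.30, 3.82 and 0.838 CPM. IleR-fed males held 19.0, 12.1 and 2.13 CPM, LeuR-fed males 26.0, 37.4 and 7.90 CPM, and ValR-fed males 14.6, 20.4, 16.3 and 4.84 CPM. Only IleR 17 lay inside the Control range. The log2 fold change was 2.72 ± 0.76, 3.82 ± 0.77 and 3.07 ± 0.74, with edgeR adjusted p of 0.0281, 0.0110 and 0.00875. With LeuR and with ValR it stayed past the threshold whichever single library was left out, and with IleR it was lost without Control 1, Control 3, Control 5, IleR 13 or IleR 14. The LeuR call was lost when only LeuR and Control males were fitted, and the IleR and ValR calls with limma voom. With the hindbrain marker score as a covariate the call was lost on every diet.

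Isl1, unlike Slc5a7 and Prph, was not called on any diet. Control males held 3.54, 0.118, 0 and 3.52 CPM, IleR-fed males 1.30, 0.678 and 0.118 CPM, LeuR-fed males 0.582, 1.84 and 17.4 CPM, and ValR-fed males 0.504, 0.943, 0.943 and 0.191 CPM. All restricted groups overlapped Control. The log2 fold change was -1.36 ± 1.32, 1.88 ± 1.19 and -1.46 ± 1.23, with edgeR adjusted p of 0.546, 0.338 and 0.441. The LeuR value came from LeuR 21, and without it the change was -0.58. The count of Isl1 per count of Chat was 0.0586 to 0.119 in IleR-fed males and 0.0693 to 0.143 in ValR-fed males, against 0 to 2.52 in Control males.

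**Figure D2:**
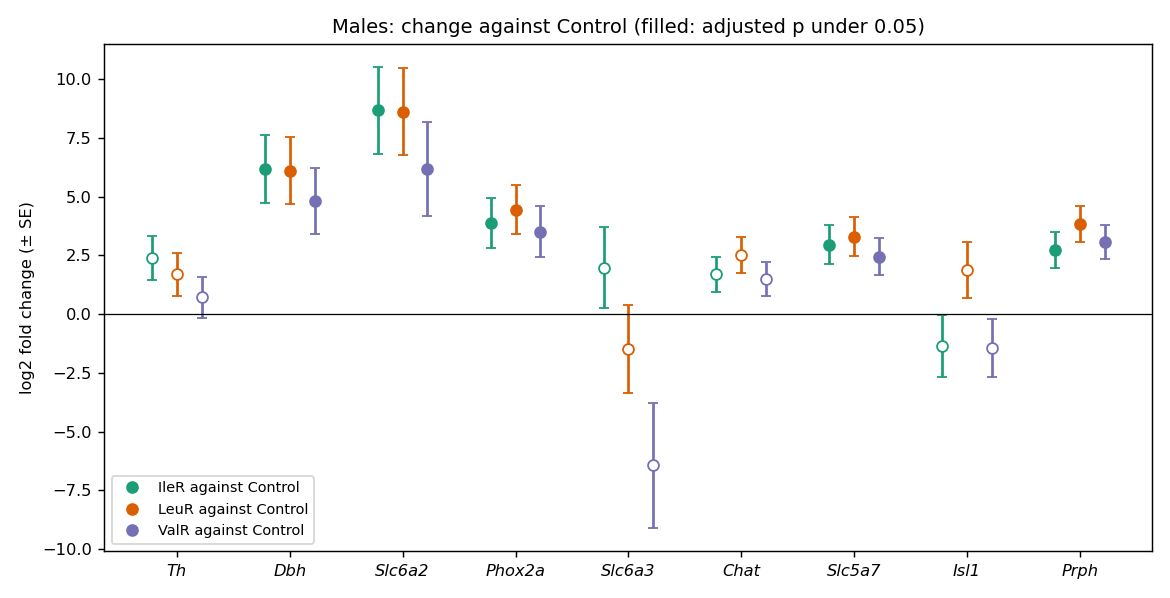
The log2 fold change of each gene in restricted males against Control on the vertical axis, with bars of 1 SE from the edgeR fit (filled points, adjusted p under 0.05; open points, not past it). Dbh, Slc6a2, Phox2a, Slc5a7 and Prph are filled on all 3 diets, and Slc6a3 runs from 1.97 with IleR to -6.44 with ValR. For Dbh, Slc6a2 and Phox2a the plotted size depends on the fit's handling of near-zero Control counts.

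The calls depended on the tool. DESeq2 called 5 members up with IleR, 6 with LeuR and 5 with ValR, against 8.37%, 6.74% and 12.6% of all genes. limma voom, the method of the study, called 1 gene up with IleR, 3 with LeuR and 1 with ValR, against 7.38%, 3.91% and 11% of all genes, and it kept 4 of the 15 edgeR calls. Leaving out Control 3 kept 4 of the 15, and leaving out Control 5 kept 6. When only the 2 groups compared were fitted, edgeR called 4 members up with IleR, 0 with LeuR and 5 with ValR, against 6.16%, 0% and 11.6% of all genes. In that fit 0 of all 21015 genes were called in either direction with LeuR.

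Between the restricted diets no member passed the test in males: 0 of 9 were called for IleR against LeuR, for ValR against LeuR or for ValR against IleR by edgeR, against 0%, 2.75% and 0% of all genes. An unadjusted p under 0.05 was found for 1, 2 and 2 members, against 2512, 5294 and 628 of all 22197 genes. DESeq2 and limma voom called 0 of 9 in each of the 3. The most different value was Slc6a3, lower with ValR than with IleR by a log2 fold change of -8.41 (edgeR adjusted p of 1) and by -4.28 without IleR 13. Isl1 was lower with ValR than with LeuR by -3.34 (edgeR adjusted p of 0.138) and by -0.86 without LeuR 21.

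Per kilobase of exon, which allows levels of different genes to be compared, the order of the group means differed between Control and LeuR-fed males. In Control males the mean was 2.25 CPM per kb for Slc6a3, 1.73 for Th, 0.900 for Slc5a7, 0.839 for Prph, 0.535 for Chat and 0.453 for Isl1, with Dbh at 0.0529, Phox2a at 0.0152 and Slc6a2 at 0.00253. In LeuR-fed males it was 11.9 for Prph, 8.79 for Slc5a7, 5.52 for Th, 3.70 for Dbh, 3.04 for Chat, 1.67 for Isl1, 1.39 for Slc6a2, 0.798 for Slc6a3 and 0.386 for Phox2a. Since the first place in Control rested on Control 4 alone, the order at the top of that group is that of 1 library.

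In females no member passed the test on any diet. Slc6a2 and Phox2a did not pass the low-count filter, and of the 7 that were tested 0 were called for IleR, 0 for LeuR and 0 for ValR by edgeR, against 0%, 0% and 0% of the 20344 genes tested. Dbh, Slc6a3 and Isl1 passed the filter only through restricted groups. At an unadjusted p under 0.05, 1, 0 and 0 members were found, and DESeq2 and limma voom called 0 on each diet. The 1 was Slc6a3 with IleR, at a log2 fold change of -3.12 ± 1.43 (edgeR unadjusted p of 0.0402, adjusted p of 1.00), and -0.44 without Control 27.

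Most female libraries held little of the noradrenaline genes. Dbh had a lowest, median and highest level of 0, 0.0926 and 1.23 CPM in Control females, 0, 0.270 and 0.653 CPM in LeuR-fed females, and 0.0570, 0.128 and 7.85 CPM in ValR-fed females. IleR-fed females held 0.0623, 0.294, 0.132, 0.266 and 0.205 CPM. Slc6a2 was at 0 in 4 of the 5 IleR-fed libraries and reached 0.311 CPM in the fifth. Its lowest, median and highest level was 0, 0.0285 and 1.36 CPM with Control, 0, 0.0913 and 1.18 CPM with LeuR and 0, 0 and 7.85 CPM with ValR, and LeuR 45 and LeuR 47 held 0.741 and 1.18 CPM, above the 0.0636 CPM of the highest Control male. ValR 36 held 133 counts of Dbh, 133 of Slc6a2 and 11 of Phox2a, and without it the log2 fold change of Dbh with ValR went from 2.24 to -1.41.

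Th varied over a range shared by all female groups, from 1.94 to 8.46 CPM with Control, 0.872 to 4.66 with IleR, 2.19 to 10.7 with LeuR and 1.55 to 10.7 with ValR. Slc6a3 was at most 0.599 CPM in all female libraries except Control 27 (8.39 CPM), LeuR 46 (2.56 CPM), LeuR 48 (1.02 CPM) and ValR 32 (5.47 CPM). The acetylcholine genes spread widely, least so with IleR for Chat. Chat had a lowest, median and highest level of 0.230, 4.98 and 15.0 CPM with Control, 0.311, 2.17 and 3.28 CPM with IleR, 0.185, 3.75 and 22.3 CPM with LeuR, and 0.238, 2.22 and 11.0 CPM with ValR. Prph ran from 0.729 to 6.28 CPM with Control, 0.368 to 2.84 with IleR, 0.524 to 5.11 with LeuR and 0.799 to 8.74 with ValR.

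The response of males and females was then compared directly by the diet-by-sex interaction. edgeR called 0 of 9 members for IleR, LeuR and ValR, against 0.0979%, 0.00445% and 4.25% of all 22465 genes tested. An unadjusted p under 0.05 was found for 8, 5 and 2 members, against 4280, 2911 and 5835 of all genes, and limma voom called 0 members in each. The lowest edgeR adjusted p was 0.0871, for Slc6a2 with IleR. Slc6a2 and Phox2a passed the low-count filter of this fit only through restricted male groups, and Slc6a3 and Isl1 only through restricted groups. For them the filter favoured genes that were higher there. DESeq2 called 4 members for IleR (Th, Dbh, Slc6a2 and Slc5a7) and 2 for LeuR (Dbh and Prph), each higher in males, and 0 for ValR, against 4.64%, 1.38% and 10.5% of all genes. A difference between the sexes in these genes was therefore called or not called depending on the tool.

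Across the 23 female libraries, which were more numerous, 4 of the 36 pairs of members were correlated after Benjamini-Hochberg adjustment (Pearson's r on log2 CPM, two-sided permutation test with 100000 resamples). Chat and Slc5a7 varied together most closely, with r = 0.971 (permutation p = 1e-05, the smallest the test can give, adjusted p = 0.00036) and Spearman's rho = 0.970 (permutation p = 1e-05, adjusted p = 0.00018), and r = 0.966 without the 2 libraries farthest from the median of Chat. Chat and Isl1 had r = 0.823 (permutation p = 2e-05, adjusted p = 0.00036) and rho = 0.843 (permutation p = 1e-05, adjusted p = 0.00018), with r = 0.777 without 2 libraries. Slc5a7 and Isl1 had r = 0.764 (permutation p = 7e-05, adjusted p = 0.00063) and rho = 0.807 (permutation p = 2e-05, adjusted p = 0.00024), with r = 0.783 without 2. The share of correlated pairs among all genes was not computed. Summed striatal markers ran from 165 to 2610 CPM in females. LeuR 43, Control 25 and ValR 33, the females with the most Chat, held 1896, 2610 and 1578 CPM of them. The part of brain region in these correlations was not tested.

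The fourth pair was Dbh and Slc6a2, with r = 0.858 (permutation p = 4e-05, adjusted p = 0.00048) and rho = 0.610 (permutation p = 0.0024, adjusted p = 0.0216). It rested in part on ValR 36 and Control 27, and r was 0.539 without the 2 libraries farthest from the median of Dbh. Th and Dbh had r = 0.429 (permutation p = 0.0387, adjusted p = 0.140) and rho = 0.359 (permutation p = 0.0929, adjusted p = 0.371), and Th and Slc6a3 had r = 0.407 (permutation p = 0.0534, adjusted p = 0.160) and rho = 0.260 (permutation p = 0.230, adjusted p = 0.592). Prph and Chat had r = -0.169 (permutation p = 0.438, adjusted p = 0.685) and rho = -0.239 (permutation p = 0.271, adjusted p = 0.605) in females. Within diet groups, as deviations from group means, the number of pairs past the threshold was again 4.

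**Figure D3:**
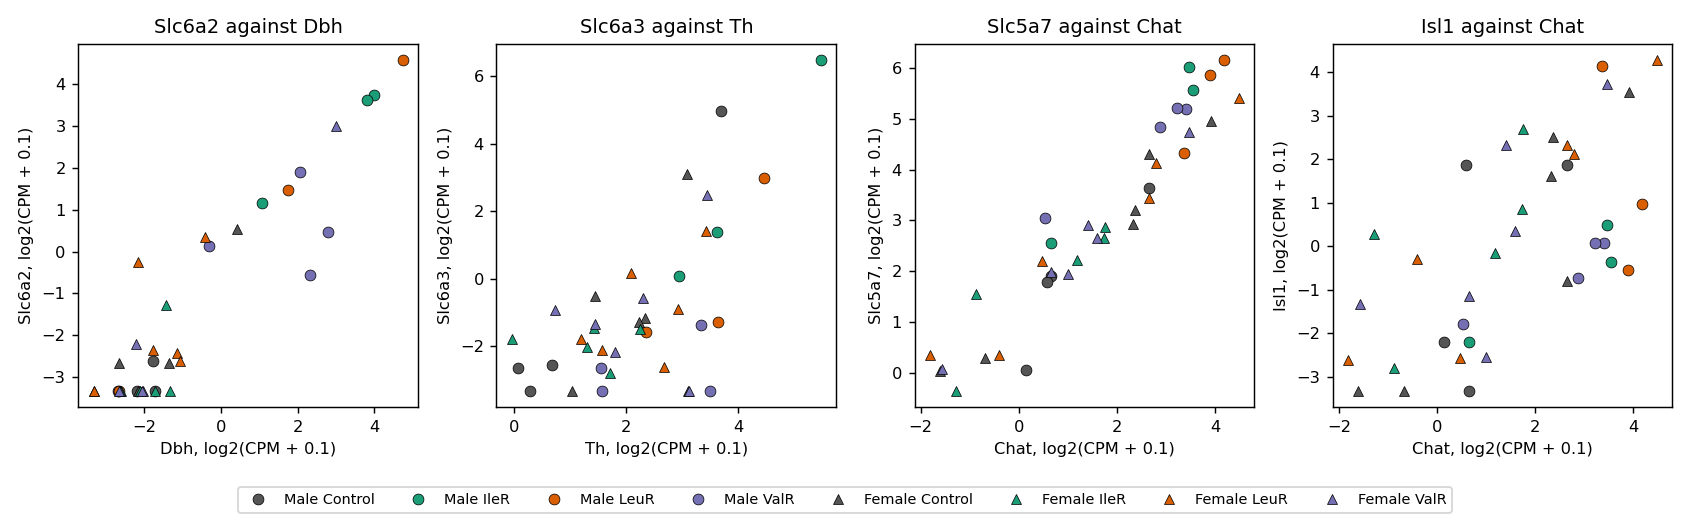
Levels of 4 pairs of genes in all 37 libraries as log2(CPM + 0.1) on both axes (circles, males; triangles, females; colours, diets). Slc5a7 rises with Chat in both sexes, with most restricted males above the females at a like Chat level, Isl1 follows Chat in most females but lies low for its Chat level in the restricted males other than LeuR 21, and Slc6a3 is high in few libraries, which also hold much Th.

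The genes most like 3 members over the 23 female libraries were taken, as a description, among the 15346 genes whose log2 CPM averaged 0 or more, leaving out the members themselves. Outside the members, Chat was followed by Slc18a3 (r = 0.963), Rasgrp2 (r = 0.921) and Slc35d3 (r = 0.919). Slc6a3 was followed by Chrna3 (r = 0.782), Tex15 (r = 0.728) and Ddc (r = 0.719), the second of these low throughout. Dbh, low in nearly all female libraries, was followed by Limk1 (r = 0.695), Card10 (r = 0.643) and Samd4 (r = 0.642).

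Markers of brain regions moved with the diets in males. A hindbrain score was taken as the mean log2 CPM of 8 cerebellar and 8 brainstem and spinal cord markers minus that of 8 forebrain markers. It was -9.33 to -6.44 in the 4 Control males and -5.16 to 4.34 in the 10 restricted males, with no overlap and a difference in means of 9.82 on the log2 scale, given as a description, since the marker genes were chosen with earlier results of these data known. Summed brainstem and spinal cord markers were 0.279 to 8.91 CPM with Control, 69.2 to 221 with IleR, 2.37 to 555 with LeuR and 112 to 568.4 with ValR, and 4 of the 8 (Hoxa2, Hoxa3, Hoxd3 and Hoxc4) were at 0 in all Control males. Summed cerebellar markers were 25.5 to 53.8 CPM with Control and 115 to 4079 CPM on the restricted diets, and summed forebrain markers were 2276 to 8410 CPM with Control and 230 to 1398 CPM on the restricted diets.

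LeuR 21, the restricted male with 1 count of Dbh, had the lowest score of the restricted males and 2.37 CPM of brainstem and spinal cord markers. In females the score ran from -8.92 to -1.17 with Control and from -8.92 to 3.74 on the restricted diets. ValR 36, with 7.85 CPM of Dbh, held 146 CPM of brainstem and spinal cord markers, and LeuR 45, with the highest female score and 158 CPM, held 0.124 CPM of Dbh, 0.741 CPM of Slc6a2, 0.185 CPM of Phox2a and 0.185 CPM of Chat. With the score as a covariate, edgeR called 0 of the 9 members for IleR, LeuR and ValR in males, 1 of the 9 having an unadjusted p under 0.05 on each diet. That fit called 3, 10 and 0 of all 22197 genes, or 0.0135%, 0.0451% and 0%. Since the scores of the restricted and Control males did not overlap, diet and the region markers cannot be told apart here.

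**Figure D4:**
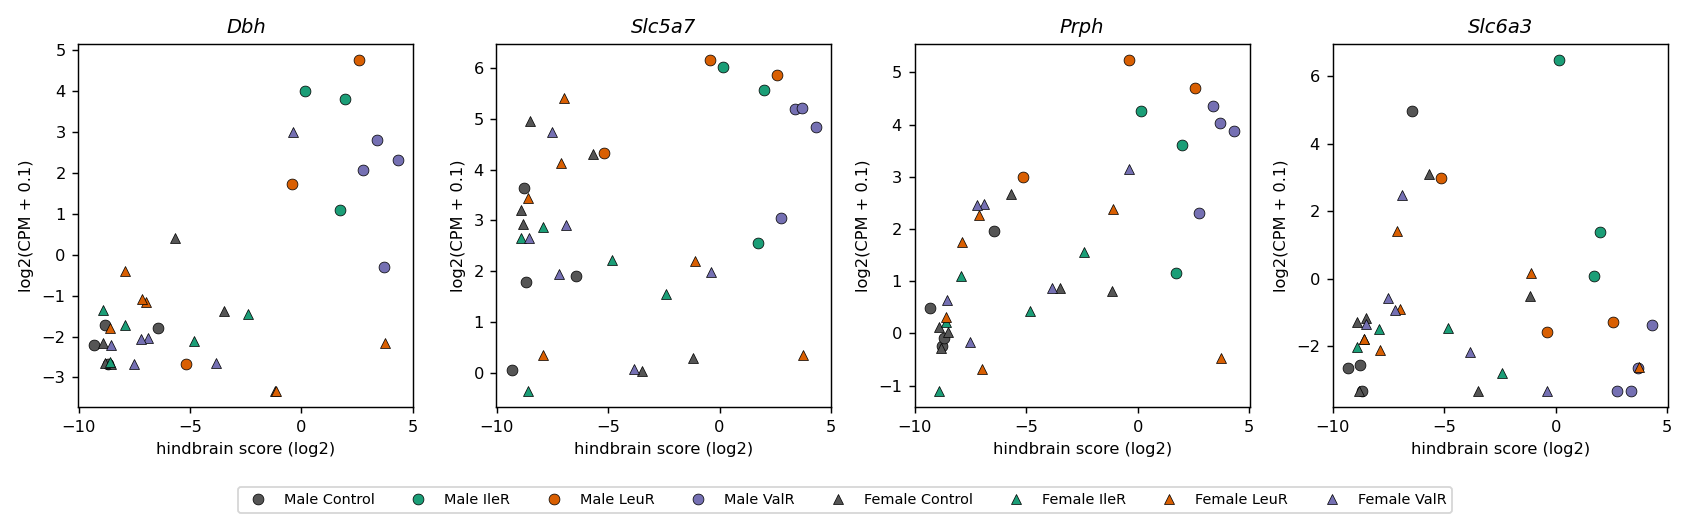
Levels of Dbh, Slc5a7, Prph and Slc6a3 as log2(CPM + 0.1) on the vertical axis against the hindbrain score of the same library on the horizontal axis (circles, males; triangles, females; colours, diets). The Control males lie at scores of -9.33 to -6.44 and 9 of the 10 restricted males at -0.408 to 4.34. The female with the highest score, 3.74, holds 0.124 CPM of Dbh, and the female with the most Dbh, ValR 36, holds 7.85 CPM at a score of -0.375.

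Other marker lists were checked in the same way. In males the 3 serotonin neuron markers summed to 0.477 to 1.08 CPM with Control, 1.54 to 102 with IleR, 0.677 to 97.5 with LeuR and 0.892 to 18.8 with ValR, and 3, 2 and 0 of them were called up. The 5 midbrain markers summed to 6.95 to 52.6 CPM with Control and 11.3 to 35.2 CPM on the restricted diets, with 0 of 5 called by edgeR. The 6 striatal markers summed to 152 to 1785 CPM with Control and 170 to 298 CPM on the restricted diets, with 3, 0 and 3 called down. Of the 6 pan-neuronal markers 1 was called up and 1 down on each diet. Sensory ganglion markers, which would come with peripheral nerve tissue, summed to 2.07 to 3.06 CPM with Control, 3.72 to 4.90 with IleR, 2.46 to 6.09 with LeuR and 2.00 to 9.57 with ValR in males, and 1, 0 and 1 of the 5 tested were called up. Pituitary, pineal and retina markers summed to 0.154 to 1.42, 0.472 to 1.01 and 1.08 to 2.61 CPM. Of these, 1 pituitary marker was called up and 1 retina marker down, both with ValR. Choroid plexus markers (13.6 to 4781 CPM) and blood markers (549 to 18376 CPM) varied widely, with 0 called. The part of these cells in the levels of the 9 genes was not tested.

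The wider gene lists around the 9 members were then counted. They held 70 genes found in the tables, of which 68 were tested in males. Genes with 0 counts in any Control male, such as Gal, Calcb and Tbx20, passed the low-count filter only through restricted groups. For them the filter favoured genes that were higher there. With IleR 11 rose and 8 fell, with LeuR 18 rose and 6 fell, and with ValR 18 rose and 13 fell, read against the same shares of all genes given above. The median log2 fold change of the 68 was 0.71, 0.67 and 0.34, against 0.04, 0.05 and 0.03 over all genes tested.

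Of the 10 noradrenaline neuron genes, 2 rose with IleR, 2 with LeuR and 3 with ValR, and 1 fell with ValR. Tfap2a, a transcription factor, rose by a log2 fold change of 3.63 with IleR and 4.20 with ValR (edgeR adjusted p of 0.0246 and 0.00663), and Gal, a neuropeptide of the locus coeruleus, rose by 6.27 with LeuR and 4.70 with ValR (edgeR adjusted p of 0.0139 and 0.0198). LeuR 21 held 385 counts of Gal (21.7 CPM) against 88 and 13 (3.94 and 0.999 CPM) in the other LeuR-fed males, although it held 1 count of Dbh. The 1 that fell was Cyb561, the vesicle cytochrome that supplies electrons to Dbh, at -1.01 with ValR (edgeR adjusted p of 0.00287).

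Of the 14 dopamine neuron genes, 4 rose on each diet, and 1, 0 and 1 fell. Lmx1b, a transcription factor of dopamine and serotonin neurons, rose by a log2 fold change of 4.63, 4.52 and 5.08 (edgeR adjusted p of 0.00296, 0.00800 and 0.000721). Sncg rose by 2.28, 2.93 and 2.37, and Ret, the receptor subunit for GDNF, by 2.22, 2.40 and 2.10. Aldh1a1 was the other that rose. Nr4a2 (Nurr1), which dopamine neurons need and which many forebrain neurons also make, fell by a log2 fold change of -2.14 with IleR and -2.92 with ValR (edgeR adjusted p of 0.0225 and 0.00167). Pitx3, the transcription factor most restricted to midbrain dopamine neurons, held 0, 0, 8 and 2 counts in Control males and at most 7 in any restricted male.

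Of the 8 acetylcholine neuron genes tested, 2 rose with IleR and 4 each with LeuR and ValR, and 0 fell. Nkx2-1, a transcription factor of basal forebrain cholinergic neurons, did not pass. It was at 0 in all ValR-fed males, and 403 of the 407 LeuR counts came from LeuR 21 (22.7 CPM), against at most 1.70 CPM with Control. Lhx8, another such factor, was not tested because each diet group had a male with 0 counts. It held 24, 0, 5 and 7 counts with Control, 107 in LeuR 21 and at most 1 in each of the other restricted males. Slc18a3 rose by a log2 fold change of 3.07, 3.901 and 3.03 (edgeR adjusted p of 0.0485, 0.0263 and 0.0327), near the values of Slc5a7. Ngfr, the low-affinity nerve growth factor receptor, rose by 2.07, 2.71 and 1.86 (edgeR adjusted p of 0.000746, 0.000262 and 0.000131), and its libraries ran from 1.83 to 3.37 CPM with Control and from 7.39 to 19.1 CPM on the restricted diets. Gbx2 rose by 3.48 with LeuR and 2.96 with ValR. Of the 7 motor neuron genes tested, 2, 5 and 5 rose and 0 fell. Tbx20, a transcription factor of cranial motor neurons, had 0 counts in all Control males and passed the low-count filter only through restricted groups. Set against a floor of 3 counts over the Control group, its pooled ratio was 17.9 with IleR, 29.1 with LeuR and 16.3 with ValR. Counting error was not included in these ratios, and IleR 17 held 0 counts and LeuR 21 held 1. Calca rose by 3.38, 3.897 and 2.80. Calcb, with 3 counts in Control, had a pooled ratio of 44.6 (14.9 to 220) with LeuR and 18.1 (5.84 to 90.4) with ValR, and Isl2, with 1, had 24.4 (3.97 to 1006) with ValR.

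In the receptor lists more genes fell than rose. Of 12 acetylcholine receptor genes, 0, 1 and 1 rose, 3, 3 and 6 fell and 9, 8 and 5 did not pass, with a median log2 fold change of 0.086, -0.03 and -0.79. Chrm1, the main muscarinic receptor of cortex and hippocampus, fell by a log2 fold change of -4.55, -2.88 and -7.07 (edgeR adjusted p of 0.00548, 0.0443 and 0.000283), from 76.3 to 228 CPM with Control to 0.791 to 35.0 CPM on the restricted diets. Chrm4, common in striatum, fell by -4.33, -2.15 and -4.51, Chrm3 by -1.91, -1.36 and -2.72, and Chrna5 by -3.89 with ValR. Of 9 adrenergic receptor genes, 0, 1 and 0 rose, 3, 3 and 4 fell and 6, 5 and 5 did not pass. Adra1d fell by -2.73, -2.67 and -2.46, Adrb1 by -1.99, -1.68 and -2.42, Adra2c by -1.23, -0.99 and -1.29, and Adrb3 by -1.68 with ValR. Of 4 dopamine receptor genes, Drd1 fell by -4.42 with IleR and -5.64 with ValR (edgeR adjusted p of 0.0180 and 0.00247), and its value with LeuR was -2.34 (adjusted p of 0.145). Of the 4 breakdown enzymes, Maoa, which oxidises noradrenaline and serotonin, rose by 0.72, 0.64 and 0.60 (edgeR adjusted p of 0.0121, 0.0308 and 0.0153), and the other 3 were not called.

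**Figure D5:**
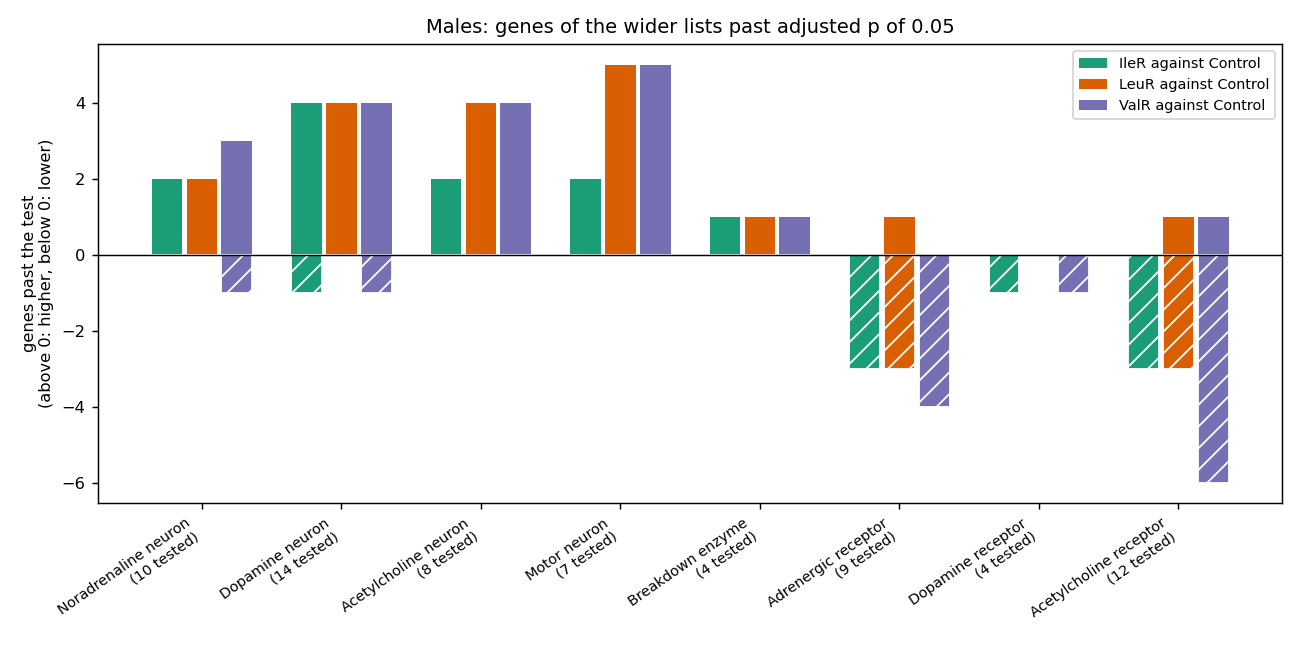
Number of genes of each wider list past an edgeR adjusted p of 0.05 in males, by diet (solid bars above 0, higher than Control; hatched bars below 0, lower than Control; number tested under each name). The 4 neuron lists lie mostly above 0, with 2 to 5 genes raised on each diet, and the 3 receptor lists mostly below it, with up to 6 lowered.

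In females 57 genes of the wider lists were tested and edgeR called 0 on each diet, with 0, 1 and 2 at an unadjusted p under 0.05. These were Adra1a with LeuR (log2 fold change 0.43), and Adra2a (0.47) and Gal (2.99) with ValR. In the diet-by-sex interaction edgeR called 0, 0 and 6 of 68 genes of the wider lists (4.25% of all genes with ValR), and in the 6 the male response to ValR lay below the female response. With ValR, DESeq2 called 15 of the 68 (10.5% of all genes), limma voom 1 (0.129%) and the fit with the hindbrain score 0 (0%). Between restricted males, 3 of 68 were lower with ValR than with LeuR (2.75% of all genes in either direction), namely Ngfr, Chrm1 and Cyb561, which were chosen after their values were seen.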

How the data were processed

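Brain RNA of 37 mice was analysed, in separate male and female tables. The authors deposited expected counts per Ensembl gene from reads aligned to GRCm38.p5, without normalization. The aligner and the strand setting of the counting are not given in the sources used here. The study's methods state that outlying libraries were removed after principal component analysis. The deposited comparison tables of log2 fold changes and p-values were not used.

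Expected counts were rounded to whole numbers. In each sex, a gene was tested where some diet group had 1 count or more in each of its libraries. Counts were scaled by TMM and fitted over the 4 diets by the edgeR quasi-likelihood test (edgeR 4.0.16, R 4.3.3), with Benjamini-Hochberg adjustment over all genes and a threshold of 0.05. CPM used the TMM library sizes, and log2 CPM a prior count of 2. The alternatives were DESeq2 1.42.0, limma voom (limma 3.58.1, the tools named in the submitters' processing notes being edgeR and limma), other scaling and filters, a hindbrain score covariate, only the 2 groups compared, and leaving out each library. Correlations and permutation tests used scipy 1.17.1. The fit was tested on simulated data, where it recovered 81.5% of 200 changed genes for LeuR-fed males and 91.5% for LeuR-fed females. It also called 9 and 10 unchanged genes there. The changed genes were drawn from those with a mean of at least 20 counts. The recovery therefore does not cover genes as low as Phox2a, or changes from near-zero counts such as those of Dbh and Slc6a2.

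Groups came from the sample labels. Replicate libraries all differed beyond sampling noise (chi-square per degree of freedom of at least 8.43 over 73 pairs). Total counts per library limit the precision, and counting intervals cover counting error only. Gene positions are those of the GENCODE annotation of GRCm38. All 9 members were named, with up to 3 genes of each wider list with the largest change past the threshold per diet and sex, or otherwise the 1 gene with the smallest p, of which the text gives those with an unadjusted p under 0.05. The members, lists and marker genes were chosen with earlier results of these data known. The values of 1 gene of the wider lists are not reported here.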

Additional observations from a re-analysis of the deposited data

Results flagged for a closer look

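In 18 of the 48 groups of 4 or more libraries checked, 1 library lay far from the others by Dixon's criterion. Chance alone meets it in about 1 in 20 independent groups of normally distributed values. These groups share libraries and hold skewed CPM with zeros, so their number cannot be set against that rate. Among Control males, library 4 stood apart at 12.8 CPM of Th (next highest 1.498 CPM) and 31.0 CPM of Slc6a3 (next 0.0681 CPM), and library 1 at 6.20 CPM of Chat (next 1.46 CPM). Among Control females, library 27 stood apart at 1.23 CPM of Dbh, 1.36 CPM of Slc6a2, 8.39 CPM of Slc6a3 and 6.28 CPM of Prph.

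Among ValR-fed females, library 36 stood apart at 7.85 CPM of Dbh, 7.85 CPM of Slc6a2 and 0.650 CPM of Phox2a, library 33 at 11.0 CPM of Chat, 26.5 CPM of Slc5a7 and 13.1 CPM of Isl1, and library 32 at 5.47 CPM of Slc6a3. LeuR-fed female 43 stood apart at 22.3 CPM of Chat and 19.1 CPM of Isl1. Among IleR-fed females, library 41 stood apart at 0.311 CPM of Slc6a2, where the other libraries held 0, and library 42 at 6.35 CPM of Isl1.

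The response to ValR differed between males and females in 6 genes of the wider lists by the edgeR diet-by-sex interaction. The log2 difference of the male minus the female response was -6.93 for Chrm1, -2.74 for Chrm3, -4.16 for Chrm4, -2.44 for Adrb1, -3.47 for Nr4a2 and -1.17 for Cyb561. limma voom called 1 gene of these lists in that comparison (29 of all 22465 genes), and the fit with the hindbrain score 0 (0 of all genes).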

How the results depend on the processing

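Over all alternatives, 594 of 705 values for single genes kept their direction and their side of the threshold, 79 lost the threshold, 17 gained it and 15 changed sign, and 476 of 515 counts stayed within 1.5 times the reported count. Against 5 members called on each diet in males, limma voom called 1 with IleR, 3 with LeuR and 1 with ValR. With the hindbrain score as a covariate, 0 members were called on each diet and 0, 1 and 0 genes of the wider lists, where 3, 10 and 0 of all genes were called. When only LeuR and Control males were fitted, 0 members and 0 genes of the wider lists were called, as were 0 of all 21015 genes in that fit. DESeq2 called 4 members in the interaction with IleR and 2 with LeuR. Leaving out single libraries gave 2 to 6 members with IleR, 1 to 6 with LeuR, 1 to 5 with ValR, and 0 to 2 in each interaction. The wider lists gave 12 to 28, 5 to 34 and 22 to 33 genes, against 19, 24 and 31. Of the 15 member calls in males, 4 were kept without Control 3, 6 without Control 5, 9 without Control 1, 11 without Control 4, ValR 9, LeuR 19 or IleR 14, and 12 to 15 without any other male.

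Values changed sign as follows, and the cause was not tested. With the score covariate Dbh became -0.41, -0.87 and -3.67, Slc6a2 with ValR -2.10, Isl1 5.17 with IleR, 6.74 with ValR and 1.08 for ValR against LeuR. With limma voom Isl1 became 0.084 with IleR and 0.23 with ValR, and Slc6a3 1.65 with LeuR. Leaving out single males, Slc6a3 ran from -2.17 (without IleR 13) to 9.31 (without Control 4) with IleR, from -4.75 (without LeuR 21) to 5.87 (without Control 4) with LeuR and from -8.10 (without ValR 7) to 0.90 (without Control 4) with ValR, and Isl1 with LeuR from -0.58 (without LeuR 21) to 2.45 (without Control 5). Leaving out single females, Dbh with ValR ran from -1.41 (without ValR 36) to 3.57 (without Control 27). No paired analysis was possible because each library number occurs once and links no libraries across groups. Depth limited Dbh, Slc6a2 and Phox2a most, at 9, 1 and 2 counts in all Control males.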
